A study of Mus musculus with 6 samples.

Results

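The genes described here encode the subunits of the mitochondrial respiratory chain and of ATP synthase, grouped by complex (I to V) and by the genome that holds the gene, nuclear or mitochondrial. They were chosen by symbol among protein-coding genes, by the families Nduf, Sdh, Uqcr, Cox4 to Cox8 and Atp5 in the nucleus and by mt-Nd, mt-Cytb, mt-Co and mt-Atp in mitochondrial DNA. The rule found 96 of the 34981 genes in the table, 83 nuclear and 13 mitochondrial. Cyc1, the cytochrome c1 gene of complex III, is not analysed here. Messenger RNA was measured by sequencing in B16F10, a mouse melanoma line, plated as cells in Matrigel, a basement membrane gel, and grown there as spheroids. For 10 days, 3 cultures were given BMP2, a secreted ligand of the TGF-beta superfamily, at 100 ng/ml, and 3 were given PBS, a buffered salt solution, and are titled untreated. The experiment was run 3 times, so each of 3 batches holds 1 culture of either kind, and the libraries are called BMP2 1 to 3 and PBS 1 to 3 by batch. The groups share the line, the gel and the time, and p-values measure only the spread between these cultures of a single line.

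The respiratory chain lies in the inner membrane of mitochondria. Complexes I and II pass electrons from NADH and succinate to ubiquinone, complex III passes them on to cytochrome c, and complex IV, cytochrome c oxidase, passes them to oxygen, while complexes I, III and IV pump protons. ATP synthase, complex V, uses the proton gradient to make ATP. Complex II is encoded by nuclear genes alone, whereas the other complexes are built from nuclear subunits, made in the cytosol and imported, together with a few hydrophobic subunits made from mitochondrial DNA.

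Libraries held 27821900 to 36856500 estimated counts. PBS 1 stood apart from the other libraries: it had the lowest scaling factor (trimmed mean of M values, TMM), 0.872, and the largest share of counts at pseudogenes, 2.81% against 1.83% to 2.37%. The 7 melanocyte markers were all detected, with a summed level of 28870 to 39071 CPM (counts scaled to a common library size with the TMM factors) in the BMP2 libraries and 23669 to 26310 in the PBS libraries, higher in every batch for all 7, and their part in the results below was not tested. Markers of other cells were near 0. The 5 leukocyte markers summed to 3.37 to 6.44 CPM with BMP2 and to at most 6.41 with PBS, the 5 fibroblast markers to 3.12 to 5.24 and 4.33 to 8.52, and the 4 endothelial markers to 0.724 to 2.02 and 1.02 to 1.76, with Cdh5 and Tek at 0 in every library. Of the epithelial markers, 2 of 4 were matched, at 0 to 0.0342 and 0 to 0.0599 CPM.

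Of the 96 subunit genes, 88 had enough counts to be tested, 75 nuclear and 13 mitochondrial. None of the 88 passed the edgeR quasi-likelihood test of BMP2 against PBS at a Benjamini-Hochberg adjusted p of 0.05 over all 12929 genes tested. The lowest adjusted p among them was 0.883 in the model without a batch term, in which 6 genes (0.0464% of those tested) passed. With batch as a block, 95 genes (0.735%) passed and the lowest adjusted p among subunit genes was 0.152. At an unadjusted p of 0.05, 0 subunit genes passed without the block, against 5.38% of all genes tested, and 15 with it, 13 lower and 2 higher, against 17.0% of all genes, a share like that of the members. DESeq2's Wald test called 0 of them and 1 at an unadjusted p of 0.05, and limma-trend after quantile normalization called 0 and 0. The counts and medians that follow therefore describe these 6 libraries. In bulk RNA, a smaller share of cells with many mitochondria and less of each transcript per cell cannot be told apart.

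Levels per kilobase of transcript separated the genomes. Mitochondrial subunit genes lay between 394 and 8332 CPM per kilobase (mean of 6 libraries), with a median of 3037, and the tested nuclear genes between 6.49 and 817, with a median of 150. The highest nuclear gene per kilobase was Atp5b, the catalytic beta subunit of ATP synthase, at 817, followed by Uqcrh, the hinge protein of complex III, at 758, and Cox6b1, a complex IV subunit on the intermembrane side, at 623. Among nuclear groups, the median per kilobase was 433 for complex IV, 199 for complex V, 172 for complex III, 107 for complex I and 96.6 for complex II. The lowest tested member was Atp5s at 6.49, which carries the name of ATP synthase but is known as a coupling or assembly factor rather than a subunit of the enzyme. Within mitochondrial DNA, the complex I genes had the lowest median, 1405, and mt-Nd3 alone, at 394, lay inside the nuclear range.

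The nuclear subunit genes leaned lower with BMP2, and most of that difference lay in batch 1. Their summed level was 14192, 12713 and 11440 CPM in BMP2 1, 2 and 3 and 19784, 13255 and 12617 CPM in PBS 1, 2 and 3. PBS 1 was far above every other library, while the remaining PBS libraries lay inside the BMP2 range. As shares of the unscaled counts these genes took 1.49%, 1.26% and 1.24% with BMP2 and 1.72%, 1.29% and 1.30% with PBS. By that measure PBS 1 was again the highest library, but nearer to BMP2 1. The median log2 fold change (BMP2 minus PBS) of the 75 tested nuclear genes was -0.21, against 0.010 over all genes tested, and 65 of the 75 were below 0. Within batches 1, 2 and 3 the medians were -0.44, -0.027 and -0.10, with 72, 43 and 56 of the 75 genes lower with BMP2. A total of 37 nuclear genes were lower with BMP2 in all 3 batches, where 21.1% of all genes tested were, and 1 was higher in all 3, where 22.8% of all genes were. In batches 2 and 3 taken alone, 37 of the 75 were lower in both, against 32.9% of all genes. At an unadjusted p of 0.05 with the block, 12 of the 75 nuclear genes passed and were lower, against 8.89% of all genes tested.

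**Figure D1:**
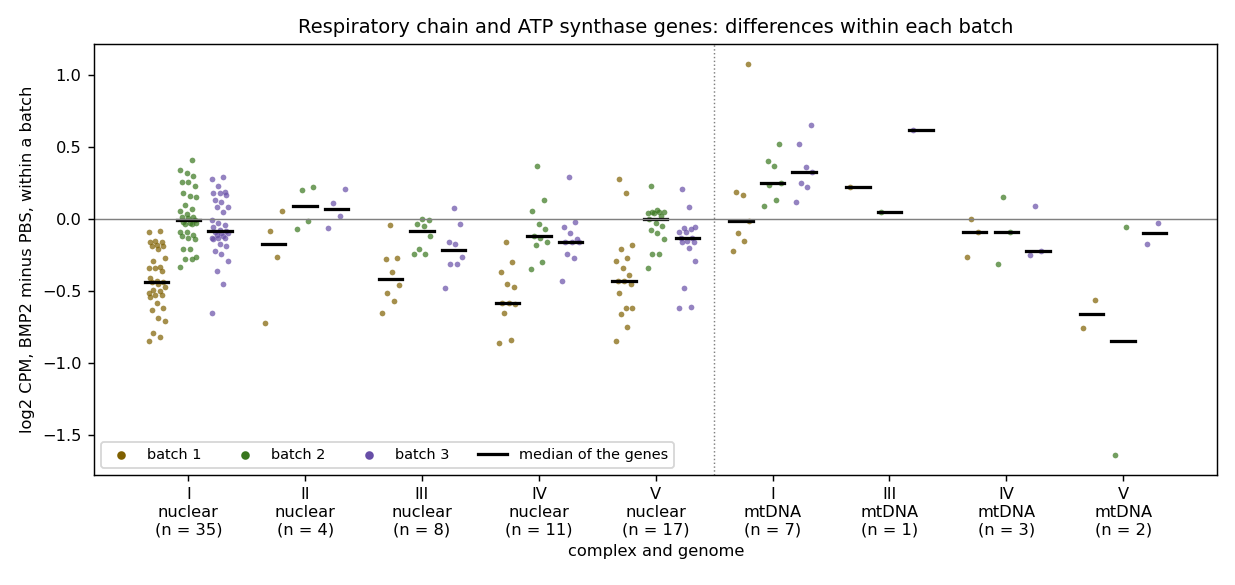
Log2 CPM in the BMP2 library minus the PBS library of the same batch, 1 point for each tested subunit gene, in columns by complex and genome, with a bar at the median of the genes in each batch. Each nuclear group has its lowest median in batch 1, where the median over all 75 nuclear genes is -0.44, and the mitochondrial complex I genes lie above 0 in batches 2 and 3.

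PBS 1 was the highest of the 6 libraries for 70 of the 75 nuclear genes, against 29.7% of all genes tested. Its log2 level exceeded the mean of PBS 2 and 3 by a median of 0.64, and BMP2 1, of the same batch, exceeded the other BMP2 libraries by 0.26. Without PBS 1, in the fit without the block, the nuclear median was 0.020. That fit keeps BMP2 1 without the PBS library of its batch. With the block and all of batch 1 left out the median was -0.064, so its size depended on batch 1. The groups were separated, with every BMP2 library below every PBS library, for 8 nuclear genes, against 5.72% of all genes tested, and in the opposite direction, where 6.42% of all genes were, for 0.

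Other genes with short transcripts showed the same excess in PBS 1. Among 198 protein-coding genes outside the chain with a principal transcript under 800 bases and a mean of at least 20 CPM, the excess of PBS 1 over PBS 2 and 3 had a median of 0.55, PBS 1 was the highest library for 146, and the median log2 fold change was -0.14. Among 6334 longer genes the corresponding values were 0.0026, 2007 and -0.012. Lower with BMP2 in all 3 batches were 82 of the 198 short genes and 1475 of the 6334 longer ones. At an unadjusted edgeR p of 0.05 with the block, 44 of the 198 and 637 of the 6334 passed and were lower. Of the nuclear subunit genes, the 36 tested with transcripts under 800 bases had an excess in PBS 1 of 0.74 and a median fold change of -0.23, and the 39 longer ones 0.49 and -0.17. The longer sets were not alike in length, with median transcripts of 1251 bases for the subunit genes and 3140 bases for the others. With the block and a smooth correction for GC content and length, the nuclear median was -0.12, against -0.19 with the block alone.

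**Figure D2:**
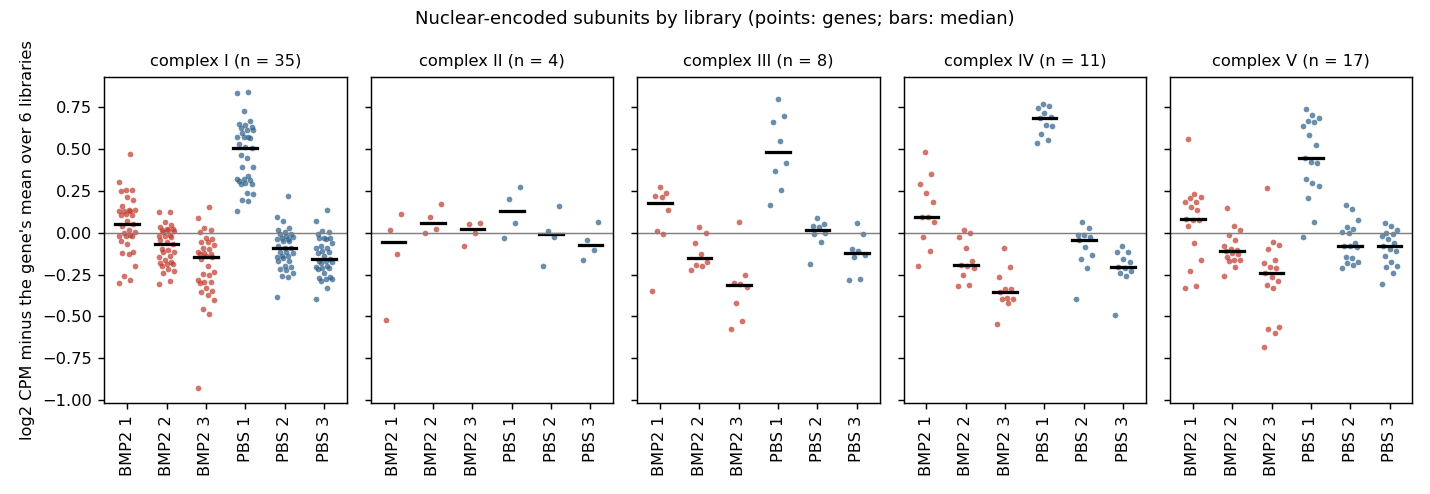
Log2 CPM of each tested nuclear subunit gene in each library minus the gene's mean over the 6 libraries, by complex, with a bar at the median. PBS 1 has the highest median in each of the 5 complexes and is the highest library for 70 of 75 genes, including all 11 of complex IV.

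Complex I, the NADH dehydrogenase, had 36 nuclear genes by the rule, of which 35 were tested. Their median was -0.17, 31 were below 0, and 14 were lower in all 3 batches and 0 higher. Without PBS 1 and without the block the median was 0.056, on the other side of 0. With the block and all of batch 1 left out it was -0.045. Within batches 1, 2 and 3 the medians were -0.44, -0.0078 and -0.085. Ndufa12, an accessory subunit of the matrix arm, had the smallest p without the block among those lower in every batch. It was at 73.5, 76.4 and 66.2 CPM in BMP2 1, 2 and 3 and at 130, 88.5 and 84.9 CPM in PBS 1, 2 and 3. The groups did not overlap, and PBS 1 was well above the other libraries. The log2 fold change was -0.49 (SE 0.21), and the edgeR adjusted p was 0.883, or 0.232 in the blocked fit. The share of counts given to a near-identical pseudogene differed between the groups, as given below with its sequence. Whether reads were exchanged between gene and copy was not tested.

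Ndufv1, which binds NADH and the flavin, went the other way between batches, with log2 differences of -0.53, 0.30 and 0.18. Ndufs1, which carries iron-sulfur clusters of the same electron path, had differences of -0.089, -0.28 and 0.085, so the subunits of the NADH-oxidizing module did not share a direction in each batch. Ndufv3, a small subunit of that module, had differences of -0.16, -0.33 and -0.65, and with the block its log2 fold change was -0.38 (SE 0.15, edgeR adjusted p 0.275). The core subunits Ndufs3, Ndufs7, Ndufs8 and Ndufv2 had fold changes of -0.16, -0.28, -0.31 and -0.19 on the log2 scale.

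Ndufa4 is placed in complex I by its symbol but is known as a subunit associated with complex IV. It was at 328, 313 and 302 CPM with BMP2 and at 374, 250 and 247 CPM with PBS. PBS 1 was the highest library and the other PBS libraries were the lowest, so the groups overlapped. Its relative Ndufa4l2, a hypoxia-induced gene, was too low to test, at 0.204 to 0.275 CPM with BMP2 and 0.120 to 0.253 with PBS, or 26.0 and 19.7 estimated counts over each group. For scale, 3 counts in a library correspond to 0.0749 to 0.103 CPM.

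Complex II, succinate dehydrogenase, had the median nearest to 0 of the nuclear groups, 0.032. The catalytic flavoprotein gene Sdha was at 147, 225 and 211 CPM with BMP2 and at 243, 236 and 221 CPM with PBS. It was lower in all 3 batches, but the differences of batches 2 and 3, -0.066 and -0.063, were small beside that of batch 1, -0.72, and BMP2 1 was the library that stood apart. Its log2 fold change was -0.26 (SE 0.21, edgeR adjusted p 0.883). The iron-sulfur subunit gene Sdhb was at 228, 229 and 233 CPM with BMP2 and at 272, 196 and 201 CPM with PBS, with the BMP2 libraries between PBS 1 and the other PBS libraries. The membrane anchor genes varied least of the 4: Sdhc was at 124, 152 and 141 CPM with BMP2 and at 132, 133 and 131 CPM with PBS, and Sdhd at 159, 147 and 139 and at 153, 148 and 137 CPM. Their log2 fold changes were 0.042 for Sdhb, 0.077 for Sdhc and 0.022 for Sdhd, with SEs of 0.19, 0.17 and 0.17. PBS 1 was the highest library for 2 of the 4 genes of complex II, against 35 of 35 in complex I, 8 of 8 in complex III, 11 of 11 in complex IV and 14 of 17 in complex V.

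All 8 tested nuclear genes of complex III, the cytochrome bc1 complex, were below 0, with a median of -0.29, and 6 were lower in all 3 batches. Uqcrq, a small subunit that contacts cytochrome b, was at 104, 90.2 and 77.1 CPM with BMP2 and at 163, 107 and 95.5 CPM with PBS. BMP2 1 lay above PBS 3, so the groups overlapped, although each BMP2 library was below the PBS library of its batch. The log2 fold change was -0.43 (SE 0.25), and the edgeR adjusted p was 0.883, or 0.236 in the blocked fit. Uqcrfs1, the Rieske iron-sulfur protein, was at 81.6, 71.5 and 69.0 CPM with BMP2 and at 106, 84.5 and 85.4 CPM with PBS. Its groups did not overlap, and its 3 differences, -0.37, -0.24 and -0.31, were close to each other. The log2 fold change was -0.31 (SE 0.18), with edgeR adjusted p values of 0.883 and, with the block, 0.273. The core proteins Uqcrc1 and Uqcrc2, which form the matrix side of the complex, had log2 fold changes of -0.15 (SE 0.18) and -0.16 (SE 0.22). Without PBS 1 the median of complex III was -0.037, and with the block and all of batch 1 left out it was -0.14.

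Complex IV had 18 nuclear genes by the rule, of which 11 were tested, with a median of -0.28. Of the 11, 10 were below 0 and 8 were lower in all 3 batches. Within batches 1, 2 and 3 the medians were -0.58, -0.12 and -0.16. The median became 0.0064 without PBS 1, and -0.12 with the block and all of batch 1 left out. Cox4i1, the general isoform of the largest nuclear subunit, was at 382, 288 and 273 CPM with BMP2 and at 598, 354 and 330 CPM with PBS. Batch 1 was the highest batch in either group, so BMP2 1 lay above PBS 2 and 3. The log2 differences within batches were -0.65, -0.30 and -0.27, the fold change was -0.44 (SE 0.28), and the edgeR adjusted p was 0.883, or 0.243 in the blocked fit. Cox7a2l, known for joining complexes III and IV into supercomplexes, was at 435, 307 and 263 CPM with BMP2 and at 652, 391 and 354 CPM with PBS. It had the same order of libraries, and its differences of -0.58, -0.35 and -0.43 gave the lowest adjusted p of complex IV with the block (edgeR, 0.188).

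The tissue isoforms of complex IV separated into expressed and near-absent genes. The general forms Cox6a1, Cox6b1, Cox7a2 and Cox8a had mean levels of 433, 623, 441 and 541 CPM per kilobase. Cox4i2, the form known from lung and low oxygen, had 5.98 estimated counts over the 3 BMP2 libraries, 4.98 of them in BMP2 2, and 0 over the PBS libraries. The heart and muscle forms Cox6a2 and Cox7a1 had 25.9 and 5.14 estimated counts over the BMP2 libraries and 28.0 and 19.3 over the PBS libraries, at 0.0292 to 0.390 CPM. Cox8b, Cox8c and Cox7b2 had 0 counts in every library, and Cox6b2 had 1.00 in BMP2 1 alone, where the floor of 3 counts in a library allows up to 0.0749 to 0.103 CPM. None of these low isoforms was tested, and counting limits cover counting error only.

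Complex V had 17 nuclear genes, all tested, with a median of -0.21 and 15 below 0. Without PBS 1 the median was -0.026, and with the block and all of batch 1 left out it was -0.064. Atp5mpl, a small protein of the membrane sector, had the lowest p of all 88 genes with the block. It was at 150, 122 and 98.6 CPM with BMP2 and at 231, 154 and 150 CPM with PBS. BMP2 1 and PBS 3 were level to within rounding, and all other BMP2 libraries were below every PBS library. The differences were -0.62, -0.34 and -0.61, the log2 fold change was -0.53 (SE 0.25), and the edgeR adjusted p was 0.883, or 0.152 in the blocked fit. Atp5j, coupling factor 6 of the stalk, was the only nuclear gene higher in all 3 batches, by 0.18, 0.063 and 0.083. It was at 154, 130 and 126 CPM with BMP2 and at 137, 124 and 119 CPM with PBS, and the groups overlapped. BMP2 minus PBS gave a log2 fold change of 0.11 (SE 0.17, edgeR adjusted p 0.916). Atp5j lies on the minus strand of chromosome 16 (84827866 to 84835625, GRCm38) and overlaps Gabpa on the plus strand (84834925 to 84863779), with annotated starts 700 bases apart, so reads of the overlap could be given to either gene if strand was not used.

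The catalytic head of ATP synthase showed the PBS 1 excess at high counts. Atp5b was at 1360, 1357 and 1316 CPM with BMP2 and at 2452, 1459 and 1443 CPM with PBS. The BMP2 libraries were within a narrow range and below every PBS library, but the distance was large only in batch 1 (-0.85, against -0.10 and -0.13). Its log2 fold change was -0.41 (SE 0.25, edgeR adjusted p 0.883). Atp5a1, the alpha subunit, had a log2 fold change of -0.17 (SE 0.18) and Atp5c1, the gamma subunit of the rotor, -0.43 (SE 0.28). Atp5d, the delta subunit at the foot of the rotor, was at 137, 163 and 154 CPM with BMP2 and at 230, 193 and 172 CPM with PBS, without overlap and with an edgeR adjusted p of 0.291 with the block. The genes Atp5g1, Atp5g2 and Atp5g3 encode the same mature ring subunit and did not share a direction in every batch. Atp5g1 had differences of -0.29, 0.018 and 0.21, Atp5g2 of -0.34, -0.24 and -0.62, and Atp5g3 of -0.18, -0.075 and -0.20. Their mean levels were 28.2, 78.7 and 188 CPM per kilobase, or 75.4, 46.1 and 135 CPM without regard to length. The values of Atp5g2 leave out its pseudogene Gm10175, described below. Summed, that pair had means of 232 CPM with BMP2 and 306 CPM with PBS, so the order of these genes depended on the measure and the copy.

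The 13 catalytic and core nuclear subunits found in the table, out of 14 listed, belong to complexes I, III and V and were all below 0, with a median of -0.19. PBS 1 was the highest library for all 13, and 7 were lower in all 3 batches. The within-batch medians were -0.51, -0.10 and -0.10.

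The 13 mitochondrial genes differed among themselves in how PBS 1 stood. Their summed level was 44035, 43633 and 42529 CPM in BMP2 1, 2 and 3 and 49354, 47206 and 39875 CPM in PBS 1, 2 and 3, so PBS 1 was the highest library and PBS 3 the lowest. As shares of the unscaled counts they took 4.62%, 4.32% and 4.62% of the counts in BMP2 1, 2 and 3 and 4.30%, 4.60% and 4.12% in PBS 1, 2 and 3, and the group ranges overlapped. These sums and shares leave out counts given to near-identical pseudogenes, described below. Gm10925, a copy of mt-Atp6, held 3731 CPM in BMP2 2 and 0 in the other libraries. Gm29216, a copy of mt-Co1, held 14.5% to 24.2% of the sum of the pair. Their median log2 fold change was 0.13, with 0.12 under the block and -0.088, 0.13 and 0.22 within batches 1, 2 and 3. PBS 1 was the highest library for 3 of the 13, mt-Co1, mt-Co3 and mt-Atp6, and its log2 level differed from the mean of PBS 2 and 3 by a median of -0.14 in complex I, 0.42 in complex IV and -0.022 over all 13. The 7 complex I genes were all above 0, with a median of 0.23, as was mt-Cytb at 0.28, whereas the 3 complex IV genes had a median of -0.083 and the 2 complex V genes of -0.44. Of the complex V genes, mt-Atp6 was at -0.55 alone and at -0.19 summed with Gm10925. Under quantile normalization the median of all 13 was 0.30, and mt-Co2 and mt-Co3 were above 0, at 0.27 and 0.21.

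Of the complex I genes, mt-Nd4l, a small subunit of the membrane arm at chrM:9877-10173 on GRCm38, was at 313, 555 and 448 CPM with BMP2 and at 278, 387 and 285 CPM with PBS. Each BMP2 library was above the PBS library of its batch, with overlap between the groups because PBS 2 lay above BMP2 1. The log2 fold change was 0.47 (SE 0.26), and the edgeR adjusted p was 0.883, or 0.227 in the blocked fit. Its neighbour mt-Nd4, whose start overlaps its end, was at 2571, 4069 and 3087 CPM with BMP2 and at 2848, 3092 and 2154 CPM with PBS. It was lower in batch 1 and higher in batches 2 and 3, and its fitted log2 value was 0.27 (SE 0.25). In batches 2 and 3 alone, a fit with the block and 1 residual degree of freedom passed both, mt-Nd4 at 0.45 and mt-Nd4l at 0.58 (edgeR adjusted p 0.0481 and 0.0302). That fit passed 531 genes in all, so passing it was not particular to subunit genes.

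mt-Nd3 had the largest batch 1 difference of the mitochondrial complex I genes. It was at 112, 161 and 194 CPM with BMP2 and at 52.9, 125 and 178 CPM with PBS. PBS 1 was the lowest library, the reverse of its place among nuclear genes, and the differences ran from 1.08 in batch 1 to 0.37 and 0.12 in batches 2 and 3. mt-Nd1, next to the ubiquinone site, was at 2753, 3721 and 2935 CPM with BMP2 and at 2410, 3157 and 2464 CPM with PBS, with a log2 fold change of 0.23 (SE 0.22). It was higher in each batch by a similar amount (0.19, 0.24 and 0.25), although PBS 2 lay above BMP2 1 and 3. mt-Nd2, mt-Nd5 and mt-Nd6 had log2 fold changes of 0.17, 0.084 and 0.13, each below 0 in batch 1 and above 0 in the others. mt-Nd6, on the opposite strand from the other 12 genes, had a log2 fold change within the range of the other complex I genes. mt-Cytb, the central subunit of complex III, was at 4398, 6444 and 6367 CPM with BMP2 and at 3763, 6232 and 4154 CPM with PBS, and batch 3 held most of the difference (0.62, against 0.22 and 0.048).

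mt-Co1, which holds the oxygen-reducing centre of complex IV, was the subunit gene with the most counts. It was at 12949, 10564 and 8884 CPM with BMP2 and at 15520, 13062 and 10320 CPM with PBS. Levels went down from batch 1 to batch 3 in either group, so the groups overlapped, and every batch had less with BMP2, with differences of -0.26, -0.31 and -0.22. The log2 fold change was -0.26 (SE 0.26), and the edgeR adjusted p was 0.886, or 0.359 in the blocked fit. mt-Co2, which takes electrons from cytochrome c, was at 6332, 6188 and 4522 CPM with BMP2 and at 6323, 6593 and 4236 CPM with PBS, a log2 fold change of -0.0093 (SE 0.26). mt-Co3 had a log2 fold change of -0.083 (SE 0.28) and differences of -0.088, 0.15 and -0.25.

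**Figure D3:**
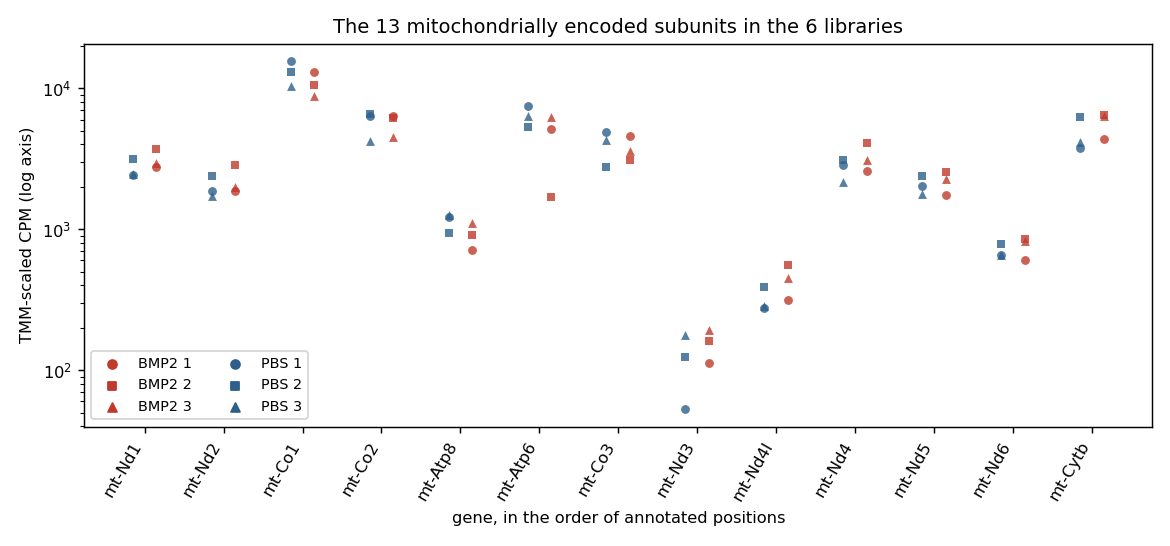
TMM-scaled CPM (log axis) of the 13 mitochondrial subunit genes in each library, in the order of their annotated positions, with symbols for the batches and colours for the groups. mt-Atp6 in BMP2 2 is at 1690 CPM against 5119 to 7536 in the other libraries, and mt-Nd3 in PBS 1 is at 52.9 against 112 to 194.

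mt-Atp6, the proton channel subunit of ATP synthase, had the most uneven values of the mitochondrial genes, and a copy in the nuclear genome held counts in the library where it was low. It was at 5119, 1690 and 6273 CPM with BMP2 and at 7536, 5270 and 6404 CPM with PBS. BMP2 2 alone was low. The pseudogene Gm10925 on chromosome 1 (24613974 to 24614651, GRCm38) matches mt-Atp6 over all of its 678 bases, and it held 3731 CPM in BMP2 2 and 0 in each of the other libraries. Summed, the pair was at 5421 CPM in BMP2 2, between BMP2 1 and BMP2 3. The log2 fold change of mt-Atp6 was -0.55 (SE 0.44) alone and -0.19 (SE 0.23) summed, with edgeR adjusted p values of 0.883 and 0.894. Its first 60 bases are shown because they hold both ambiguities of this gene: they are the same in Gm10925, and the part in capitals, chrM:7927-7969, is also the end of mt-Atp8. A read that lies wholly within Gm10925 and this gene carries no letter that separates them.
mt-Atp6: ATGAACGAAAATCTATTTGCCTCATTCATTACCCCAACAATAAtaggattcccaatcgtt

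mt-Atp8, a small subunit beside mt-Atp6, was at 716, 912 and 1115 CPM with BMP2 and at 1211, 946 and 1259 CPM with PBS. The groups overlapped, and it was lower in each batch, mostly in batch 1 (-0.76, against -0.052 and -0.17). Gm10925 is 1 of 7 pseudogenes that copy mitochondrial subunit genes from mt-Co1 to mt-Nd4 and lie side by side on chromosome 1, between 24611535 and 24616197. The copy of mt-Co1, Gm29216, held 14.5% to 24.2% of their sum, and that of mt-Nd3, Gm28438, held 17.8% in PBS 1 and at most 1.68% elsewhere. Gm29216 is 492 bases long, against 1545 for mt-Co1, and 483 of its bases align, with 1 mismatch. That mismatch is A13T (mt-Co1 base, position from the first base of the copy, copy base). The 24 bases shown start at base 10 of the copy, where the alignment starts, with the differing base in capitals.
mt-Co1: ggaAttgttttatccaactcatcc
Gm29216: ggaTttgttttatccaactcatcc

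In all, 16 of the 96 subunit genes, 9 nuclear and 7 mitochondrial, shared at least 80% of the 31-base words of the smaller gene with 1 or more annotated pseudogenes, 17 in all. For 3 of these copies, more than 50% of the summed counts were given to the pseudogene in all 6 libraries. Cox7c, a small subunit of complex IV, has the shortest of these 3 copies. It was at 81.0, 57.1 and 50.4 CPM with BMP2 and at 90.2, 44.1 and 41.3 CPM with PBS, while Gm12338 held 63.7% to 72.0% of the sum. Its coding sequence is shown whole because Gm12338 on chromosome 11 (75599763 to 75599954) is identical to it in all 192 bases, with the first and last codons in capitals.
Cox7c and Gm12338: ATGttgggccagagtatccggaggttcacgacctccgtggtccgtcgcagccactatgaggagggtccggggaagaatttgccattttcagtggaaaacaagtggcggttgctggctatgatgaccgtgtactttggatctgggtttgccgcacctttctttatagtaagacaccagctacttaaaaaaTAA

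The log2 fold change of Cox7c was 0.10 (SE 0.34) alone and -0.14 (SE 0.31) summed with the copy. Ndufb4, a membrane arm subunit of complex I, was at 0.10 alone and at -0.12 when summed with Ndufb4c, which held 80.8% to 85.1% of the sum and is identical over 390 bases. Gm10175 held 80.7% to 85.6% of the sum with Atp5g2, whose log2 fold change was -0.38 alone and -0.40 summed with its copies. Cox7c and Ndufb4, and Ndufs5 below, were chosen after their values were seen.

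For Ndufs5 and Ndufa12, whose copies differ from them at 2 bases, the gene had a log2 fold change below 0 and the copy one above 0. Ndufs5, a complex I subunit on the intermembrane side, was at 65.5, 54.2 and 47.2 CPM with BMP2 and at 118, 65.9 and 64.5 CPM with PBS, and its log2 fold change of -0.57 (SE 0.28) was the lowest of the 88. Its copy BC002163 on chromosome 16 (42955631 to 42955949) was at 50.6, 55.3 and 55.2 CPM with BMP2 and at 46.9, 31.6 and 33.1 CPM with PBS, a log2 fold change of 0.53. All BMP2 libraries of the copy lay above all PBS libraries. The sum had a log2 fold change of -0.14 (SE 0.24, edgeR adjusted p 0.932). The mismatches over the copy's 319 bases, T81C and A105G (positions from the first base of the copy), stand in capitals.
Ndufs5: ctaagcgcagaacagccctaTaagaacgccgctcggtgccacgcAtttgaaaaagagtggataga
BC002163: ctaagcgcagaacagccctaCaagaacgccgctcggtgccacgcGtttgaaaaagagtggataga

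Ndufa12 showed a similar arrangement with Gm15920 on chromosome 5 (130188395 to 130188796), which differs from it at A99G and T378C over 402 bases. The copy was at 70.0, 71.2 and 62.9 CPM with BMP2 and at 80.1, 50.5 and 45.8 CPM with PBS, a log2 fold change of 0.21 against -0.49 for the gene. Unlike BC002163, this copy was lower with BMP2 in batch 1, and its groups overlapped. The share of the sum held by Gm15920 was 48.3% to 48.8% in the BMP2 libraries and 35.1% to 38.1% in the PBS libraries. Summed, the log2 fold change was -0.19 (SE 0.22, edgeR adjusted p 0.894), so the lowest log2 fold changes of complex I, those of Ndufs5 and Ndufa12, were nearer to 0 when the copies were counted with the genes. The first mismatch is shown with 20 bases on either side.
Ndufa12: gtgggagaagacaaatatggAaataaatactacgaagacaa
Gm15920: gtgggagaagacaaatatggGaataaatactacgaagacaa

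With all members summed with their copies, 35 of the 75 nuclear genes were lower in all 3 batches, against 37 before, and the nuclear median was -0.19.

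**Figure D4:**
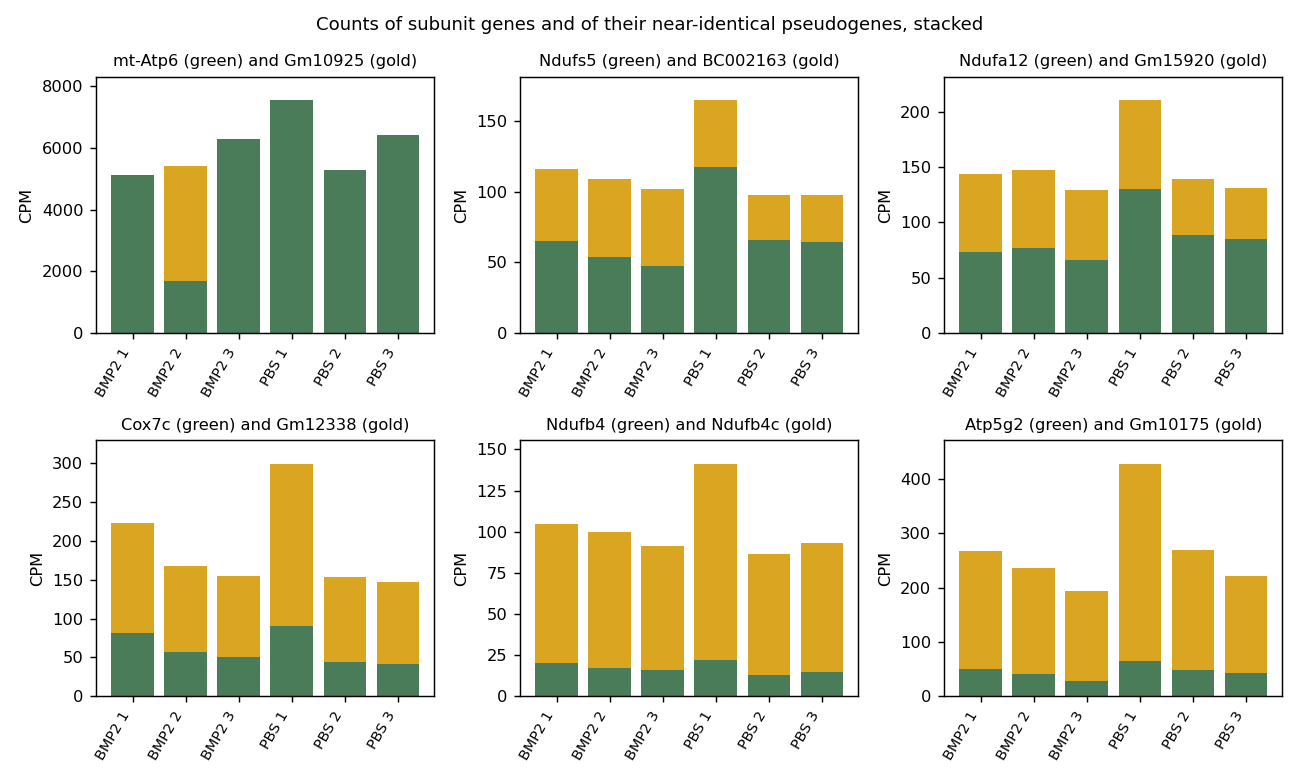
CPM in each library of 6 subunit genes (green) with a near-identical pseudogene (gold) stacked on top, each panel from 0 on its own axis. In BMP2 2, Gm10925 holds 3731 CPM and mt-Atp6 1690, and in the other libraries Gm10925 is at 0, while for Cox7c, Ndufb4 and Atp5g2 the copy holds more than 50% of the sum in all 6 libraries.

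Nuclear subunit genes are known to share promoter elements for NRF1, GABP and YY1. Promoters of 300 bases (250 before and 50 after the start, RefSeq on GRCm38.p6) were matched for 65 of the 83 nuclear genes, with 70 promoters, and were searched on both strands for fixed letters. The NRF1 motif TGCGCA stood in 24.3% of the 70, in 13.8% of promoters of genes tested and in 7.76% of all promoters. The ETS core CCGGAAG, as bound by GABP, stood in 22.9%, 17.5% and 8.86%, the YY1 core AAGATGG in 14.3%, 6.94% and 6.34%, and the HIF core ACGTG in 24.3%, 25.4% and 19.6%. Median GC content was 57.2% in the members' promoters, 60.7% in those of genes tested and 52.7% in all. The fold changes did not differ much by motif: the median was -0.20 for the 16 tested genes with the NRF1 motif and -0.21 for the 45 without, -0.24 and -0.19 for the ETS core, -0.17 and -0.21 for the YY1 core, and -0.23 and -0.19 for the HIF core. A match is a run of letters and not a bound site. As examples of the NRF1 motif, the 150 bases before the starts of the membrane arm gene Ndufb6 (chr4:40279422-40279571, minus strand) and the matrix arm gene Ndufa9 (chr6:126849145-126849294, minus strand) are printed with it in capitals, 78 and 56 bases before the start.
Ndufb6: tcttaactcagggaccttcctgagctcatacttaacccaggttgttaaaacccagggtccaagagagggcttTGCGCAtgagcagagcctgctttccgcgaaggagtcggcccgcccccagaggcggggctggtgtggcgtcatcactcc
Ndufa9: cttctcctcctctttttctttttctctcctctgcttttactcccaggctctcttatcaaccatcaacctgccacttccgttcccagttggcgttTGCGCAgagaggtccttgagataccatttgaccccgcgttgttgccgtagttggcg

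The levels of these genes follow, and the difference between them was not tested. Ndufb6 was at 30.9, 25.9 and 25.6 CPM with BMP2 and at 46.1, 26.5 and 26.0 CPM with PBS, where PBS 1 stood alone. Its log2 fold change was -0.26 (SE 0.27). Ndufa9 was at 165, 166 and 160 CPM with BMP2 and at 188, 149 and 161 CPM with PBS, a log2 fold change of -0.019 (SE 0.17).

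The factors that assemble the complexes were measured as 5 lists. None of the tested genes in these lists, 1 for each complex, passed in either edgeR fit. Medians were 0.062 for 16 factors of complex I, 0.10 for 4 of complex II, 0.35 for 6 of complex III, -0.038 for 19 of complex IV and 0.10 for 5 of complex V. Lower in all 3 batches were 0, 1, 1, 5 and 1 of them, and higher in all 3 were 6, 3, 2, 5 and 2, where 21.1% and 22.8% of all genes tested were. The difference between subunits and factors was not tested. Ttc19, which helps clear fragments of the Rieske protein from complex III, was at 25.5, 23.0 and 24.7 CPM with BMP2 and at 15.5, 15.5 and 17.8 CPM with PBS. The groups were well apart and PBS 1 did not stand out. BMP2 minus PBS gave a log2 fold change of 0.59 (SE 0.19), and the edgeR adjusted p was 0.722, or 0.163 in the blocked fit. Coa7, a factor of complex IV, had a log2 fold change of 0.56 (SE 0.29), Ndufaf7, which methylates a complex I subunit, 0.30 (SE 0.20), and Fmc1, a factor of complex V, -0.37 (SE 0.31), each at an edgeR adjusted p of 0.883. The assembly factors were longer than the subunits, with median transcript lengths of 1530, 2736, 2156, 1383 and 1636 bases in the order of complexes, against 861 for the tested nuclear subunit genes.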

How the data were processed

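RNA was extracted with the RNeasy Plus kit and made into libraries with TruSeq, per the labels' protocols. The values are estimated counts per gene that the authors deposited, and the submitters' processing notes name kallisto 0.44.0 and GRCm38.p6. The annotation release is not given in the sources used, nor is the strand setting. Of 34981 rows, 302 identifiers were not matched to a gene name. Estimated counts were rounded to whole numbers and tested with edgeR 4.0.16 (R 4.3.3; filterByExpr, TMM, quasi-likelihood test, Benjamini-Hochberg adjustment over 12929 genes) for BMP2 against PBS, without a batch term and with batch as a block. Depth was 27821900 to 36856500 estimated counts a library. CPM are TMM-scaled, and differences within a batch are of log2 CPM with a prior count of 2.

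The labels give each library's batch, and it has the same number as the replicate, so the numbers pair the libraries. Deviations from the group means correlated across genes at 0.51, 0.25 and 0.52 within batches and at -0.51 to 0.03 between them. By construction the deviations of a group cancel out for each gene, so the values between batches are not independent of those within them. Lengths are medians over principal coding transcripts. Sequences came from the reference transcripts and from RefSeq promoters, with alignments by Biopython 1.88 under Python 3.11.15. Alternatives used DESeq2 1.42.0, limma 3.58.1, other filters, summed near-identical genes and libraries or batches left out. The edgeR fits were tested on simulated data.

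The members, the lists and the tests were chosen with earlier results of these data known. Genes named were those passing over all genes, the smallest p in each direction of each complex among nuclear genes with 1 direction in all 3 batches, the genes of complex II and of mitochondrial DNA, core subunits, isoform pairs, and the leading gene of each list. Other genes named, among them Ndufv3, Ndufs5, Cox7c and Ndufb4, were chosen after their values were seen.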

Additional observations from a re-analysis of the deposited data

How the results depend on the processing

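None of the members was called without a batch term or with batch as a replicate block, where the lowest adjusted p was 0.152. With the block and without batch 1, 2 members were called among 531 genes in all, on 1 residual degree of freedom. The nuclear median of -0.21 was -0.32 to 0.020 with 1 library left out, and 0.020 came without PBS 1; it was -0.19 with the block and -0.064 with the block and without batch 1. Without PBS 1 the medians of complexes I, III, IV and V were 0.056, -0.037, 0.0064 and -0.026. With the block and without batch 1 they were -0.045, -0.14, -0.12 and -0.064. The mitochondrial median of 0.13 was 0.30 under quantile normalization and 0.027 to 0.27 with 1 library left out. Over all genes, 6 were called, 95 with the block, 90 with the block and a GC and length correction, 35 without a filter, 9 after quantile normalization, 130 by DESeq2's Wald test, and 1 and 83 with near-identical genes summed, without and with the block; with the block and batch 1, 2 or 3 left out, 531, 27 and 218 were called. Of 55 named genes under 18 alternatives, 16 took the other sign at least once, in 54 of the values, while 934 kept their direction and their side of the threshold; the cause was not tested. With the block, mt-Co2 was at 0.0016. With the block and the GC and length correction, mt-Nd5 was at -0.024 and mt-Co2 at 0.052. With no filter, mt-Co2, Ndufv1 and Atp5g1 were at 0.0062, 0.0061 and 0.012. After quantile normalization, mt-Co2, mt-Co3, Ndufv1, Cox7a2 and Atp5g1 were at 0.27, 0.21, 0.011, 0.036 and 0.0058. With copies summed, Cox7c and Ndufb4 were at -0.14 and -0.12, and with the block added at -0.079 and -0.083, with mt-Co2 at 0.0028. With the block and without batch 1, Sdhd, Ndufv1, Uqcrc1, Cox7a2 and Atp5g1 were at -0.0036, 0.23, 0.0047, 0.0087 and 0.11. Without batch 2, Sdhb, mt-Co2, Ndufs1 and Ndufb4 were at -0.019, 0.052, 0.0018 and -0.0058, and without batch 3, Sdhb, mt-Nd5 and mt-Co3 were at -0.019, -0.066 and 0.029. With 1 library left out in turn, the ranges were -0.030 to 0.063 for Sdhd, -0.037 to 0.20 for Sdhb, -0.0018 to 0.15 for Sdhc, -0.056 to 0.32 for mt-Nd2, -0.052 to 0.23 for mt-Nd5, -0.18 to 0.13 for mt-Co2, -0.28 to 0.082 for mt-Co3, -0.45 to 0.016 for Ndufs7, -0.095 to 0.12 for Ndufv1, -0.27 to 0.024 for Uqcrc2, -0.30 to 0.20 for Cox7a2, -0.15 to 0.14 for Atp5g1, -0.12 to 0.55 for Cox7c and -0.052 to 0.36 for Ndufb4. The counts of nuclear genes lower in both of batches 2 and 3 and with copies summed, 37 and 35 against 37, were chosen after seeing the data.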

Other observations

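Genes that feed the chain were also measured. The 14 genes of the tricarboxylic acid cycle had a median log2 fold change of -0.16. In all 3 batches 6 were lower and 2 higher, against 21.1% and 22.8% of all genes tested. PBS 1 was the highest library for 10 of them, against 29.7% of all genes tested. Idh2, the mitochondrial NADP-dependent isocitrate dehydrogenase, was at 205, 179 and 186 CPM with BMP2 and at 325, 231 and 249 CPM with PBS. Its groups did not overlap, and its log2 fold change was -0.50 (SE 0.20), and the edgeR adjusted p was 0.883, or 0.176 in the blocked fit. Cs, citrate synthase, was at 267, 321 and 280 CPM with BMP2 and at 439, 364 and 369 CPM with PBS, also without overlap. Ogdh, of the oxoglutarate dehydrogenase complex, lay on the other side of 0, at 0.40. The 14 electron carrier and coenzyme Q genes had a median of 0.018. Among them Cycs, cytochrome c, was at 330, 332 and 290 CPM with BMP2 and at 514, 340 and 358 CPM with PBS, and Coq2, which attaches the isoprenoid tail of coenzyme Q, had a log2 fold change of 0.34 (SE 0.20).

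The 11 genes of mitochondrial DNA upkeep and transcription had a median of 0.12. In all 3 batches 0 were lower and 4 higher, against 21.1% and 22.8% of all genes tested. Tefm, the mitochondrial elongation factor, was at 7.36, 7.91 and 9.71 CPM with BMP2 and at 3.16, 5.09 and 8.77 CPM with PBS, with overlap between the groups and a log2 fold change of 0.55 (SE 0.39). Tfam, which packages mitochondrial DNA, and Polrmt, its RNA polymerase, were at -0.040 and 0.077. The 8 nuclear regulators had a median of -0.19, with 2 lower in all 3 batches, against 21.1% of all genes tested. Nrf1 was at 44.6, 37.3 and 36.1 CPM with BMP2 and at 59.9, 47.1 and 39.4 CPM with PBS, with a log2 fold change of -0.31 (SE 0.22), and Ppargc1a and Yy1 were at -0.30 and -0.27. None of the genes in these 4 lists passed in the edgeR fit without or with the block.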
